A study of Rattus norvegicus with 48 samples.

Results

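miR-204 and its close relative miR-211 were followed through 48 small RNA libraries from rat amygdala [A] and ventral striatum [V]. The group comprised 5 of the 1063 miRNA names in the deposited table, namely the mature names miR-204-5p, miR-204-3p and miR-211-5p and the precursor names mir-204 and mir-211. They were chosen because the study listed mir-204 and miR-204-5p for ethanol and enrichment effects in the amygdala and because their levels differed widely between pools of a single treatment group. The ethanol effect in non-enriched rats [A N(EvC)] and the enrichment effect in ethanol-exposed rats [A E(SvN)] are therefore described below without a test. The spread between pools is likewise only described. Tests between regions that include the groups of these contrasts are given, but no conclusion is drawn from them. The regions are also tested in the control enriched rats alone. Each library was made from RNA pooled from 3 Long Evans rats of one sex and treatment, killed on postnatal day 42 (P42). Dams received ethanol (E) or saline (control, C) by intraperitoneal injection on gestational day 12. From weaning on P21 to P42, the offspring were non-enriched (N), housed with littermates of their own sex, or socially enriched (S), housed with unfamiliar rats of their own sex from a dam that received no treatment. This gave the treatments CN, CS, EN and ES, with 3 female pools (F1 to F3) and 3 male pools (M1 to M3) each per region. P-values here measure only the spread between pools.

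miRNAs are cut from a hairpin precursor, and the arm that is retained guides repression of messenger RNAs through its seed, the stretch near the 5′ end that pairs with targets. miR-204 lies within the gene for the ion channel Trpm3 and miR-211 within its paralog Trpm1. In the brain miR-204-5p is best known as an abundant miRNA of the choroid plexus, the epithelium that secretes cerebrospinal fluid, and both miRNAs are also known from the retinal pigment epithelium. The deposited values cover miRNAs only, so no choroid plexus messenger RNA was measured in these libraries. In RNA from a whole dissected region, a smaller number of cells of a type and less RNA per cell cannot be told apart.

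The mature sequences are shown because a single base separates both 5p members, with the seed (bases 2 to 8) in capitals. They were taken from RefSeq (build GRCr8), which held a sequence for all 5 members, while the reads themselves had been aligned to Rn5.

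miR-204-5p: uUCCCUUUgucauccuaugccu

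miR-211-5p: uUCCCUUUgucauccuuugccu

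miR-204-3p: gCUGGGAAggcaaagggacguu

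miR-204-5p and miR-211-5p had the same seed and were identical at 21 of 22 bases, the substitution from miR-204-5p to miR-211-5p being A17U, counted from 1 at the 5′ end. Of the 724 mature sequences in the RefSeq table, only these 2 carried that seed, and miR-204-3p was alone with its own. The hairpins are shown because the precursor names count reads from both arms, which are in capitals. miR-211-3p, the arm in capitals nearer the 3′ end of mir-211, was not analysed here.

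mir-204: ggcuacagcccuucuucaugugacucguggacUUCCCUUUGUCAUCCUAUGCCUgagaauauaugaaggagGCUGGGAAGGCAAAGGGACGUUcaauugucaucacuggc

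mir-211: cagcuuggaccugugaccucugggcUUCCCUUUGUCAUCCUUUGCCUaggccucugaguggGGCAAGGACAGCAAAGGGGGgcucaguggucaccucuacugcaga

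In GRCr8 the hairpin of mir-204 lay on the plus strand at chr1:229743461-229743570, within the span of Trpm3, and that of mir-211 on the plus strand at chr1:127189328-127189433, within the span of Trpm1. miR-204-5p occupied bases 33 to 54 of its hairpin and miR-204-3p bases 72 to 93, and miR-211-5p occupied bases 26 to 47. Whether the hairpins fall in an exon or an intron was not given in the tables used.

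The values are in RPM, with reads scaled so that the mature and the precursor names of a library each add up to 1000000. Mature and precursor values are thus on separate scales, and each comparison was made within a name. From the worth of 1 read, the libraries held 363141 to 1287699 (amygdala) and 739464 to 1370412 (ventral striatum) mature reads. A floor of 3 reads corresponded to 2.33 to 8.26 RPM for mature names of the amygdala and to 2.19 to 4.06 RPM in the ventral striatum, and it covers counting error only.

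In the amygdala miR-204-5p ranged from 3085 RPM in a pool of control males to 122453 RPM in a pool of ethanol-exposed females, a 39.7-fold range, with a median of 13317 RPM over 24 libraries. In the ventral striatum it stayed between 3789 and 6958 RPM, a 1.84-fold range, with a median of 5637 RPM. The amygdala levels left a gap. In 11 libraries miR-204-5p was between 3085 and 5071 RPM, in the other 13 it was at 11586 RPM or more, and the step across the gap was 2.28-fold. All 13 were above every ventral striatum library, whereas 6 of the 11 fell within the ventral striatum range and 5 below it. Because miR-204-5p had at least 1434 reads in every library, this range did not rest on low counts.

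In control non-enriched amygdala (A CN), miR-204-5p was at 11586, 3328 and 30571 RPM in female pools F1, F2 and F3 and at 3085, 3580 and 21257 RPM in male pools M1, M2 and M3. In control enriched amygdala (A CS) the female pools had 21619, 4192 and 3453 RPM and the male pools 31769, 5071 and 31896 RPM. Both control groups thus held 3 pools on each side of the gap.

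In ethanol-exposed non-enriched amygdala (A EN) the values were 37264, 122453 and 4663 RPM in F1, F2 and F3 and 3500, 15047 and 107889 RPM in M1, M2 and M3. In ethanol-exposed enriched amygdala (A ES) they were 3928, 4575 and 36484 RPM in the female pools and 29097, 24588 and 4056 RPM in the male pools. The higher side of the gap thus held 4 of 6 A EN and 3 of 6 A ES pools, and in all it held 6 of 12 female and 7 of 12 male amygdala pools. A pair of A EN pools, F2 and M3, stood apart from the rest, since the next highest amygdala library was A EN F1 at 37264 RPM.

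Dixon's test over the 6 pools of a group marked no library as an outlier for any member. It sets an end value against its nearest neighbour, so A EN F2 and M3 mask each other and the test cannot judge them. The same holds for groups with several pools on each side of the gap. In A EN F2 and M3 miR-204-5p took 12.2% and 10.8% of the mature RPM and was the second most abundant mature name (rank 2), while in the other libraries of the amygdala its rank went down to 46. Ventral striatum libraries gave it 0.379% to 0.696% of the mature RPM and ranked between 27 and 39. The depths of A EN F2 and M3, 622111 and 1135884 mature reads, were both within the amygdala range.

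**Figure D1:**
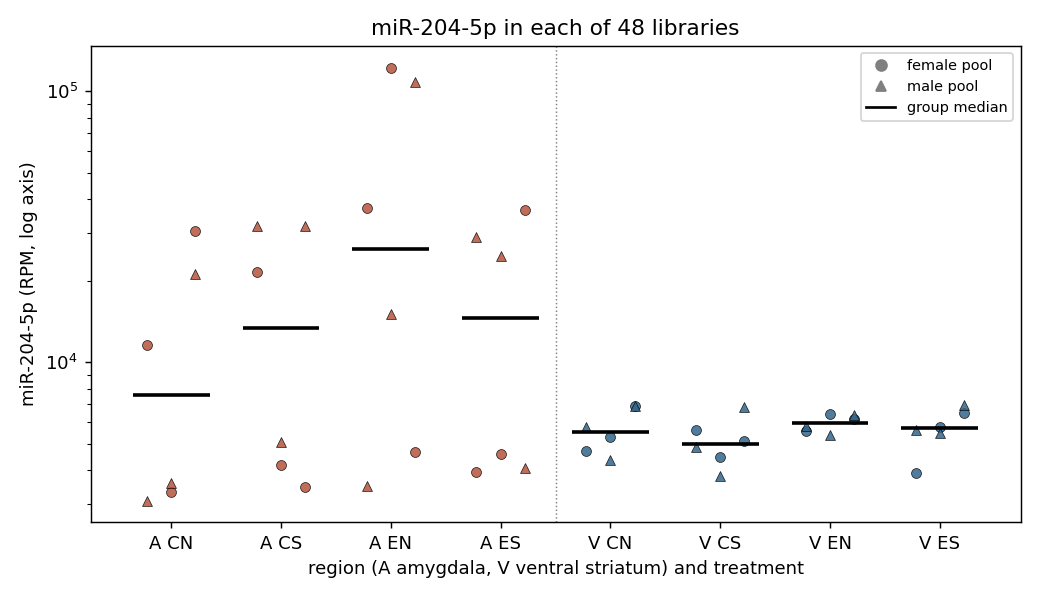
miR-204-5p in RPM (log axis) in each of 48 libraries, grouped by region (A amygdala, V ventral striatum) and treatment (CN control non-enriched, CS control enriched, EN ethanol-exposed non-enriched, ES ethanol-exposed enriched). Circles are female and triangles male pools, and bars are medians of 6. Every amygdala group has pools both at 5071 RPM or less and at 11586 RPM or more, while all ventral striatum libraries sit between 3789 and 6958 RPM.

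The medians of miR-204-5p, from highest to lowest, were 26156 RPM in A EN, 14582 in A ES, 13345 in A CS, 7583 in A CN, 5987 in V EN, 5700 in V ES, 5524 in V CN and 4997 in V CS. The ranges of all neighbours in this order overlapped. In the ventral striatum the pools reached from 4355 to 6924 RPM in V CN, from 3789 to 6851 RPM in V CS, from 5394 to 6444 RPM in V EN and from 3903 to 6958 RPM in V ES. None of these groups held a pool near the higher side of the amygdala gap.

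The precursor mir-204 followed its 5p arm. It ranged from 2896 to 122490 RPM in the amygdala (median 13037) and from 3446 to 6661 RPM in the ventral striatum (median 5324). As for miR-204-5p, 13 amygdala libraries were above the whole ventral striatum range and 5 below it. By estimated reads, mir-204 held 108% to 124% of the sum of miR-204-5p and miR-204-3p (amygdala) and 107% to 114% (ventral striatum), so precursor rows also contained reads outside the mature rows. Since the libraries were size-selected for short RNAs, mir-204 here counts short fragments of the hairpin, mostly of the 5p arm, and not the intact precursor.

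miR-204-3p, the other arm of the hairpin, was close to the detection floor. It was listed at 0 RPM in 6 of 24 amygdala and 2 of 24 ventral striatum libraries and reached at most 28.9 RPM (A EN F2) and 5.64 RPM (V ES M3). Its reads numbered 0 to 28 per amygdala library and 0 to 5 per ventral striatum library. At this depth a level of 0 does not show absence. The highest values, 28.9 and 24.7 RPM, were in A EN F2 and M3, the same pools that were highest in miR-204-5p.

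miR-211-5p was far less abundant than its relative. In the amygdala it ranged from 16.3 to 127 RPM (median 45.4) and in the ventral striatum from 12.2 to 49.7 RPM (median 29.0), from 9 to 144 and from 15 to 51 reads. Of the amygdala libraries, 11 were above every ventral striatum library and 0 were below all of them. The precursor mir-211 ranged from 18.4 to 192 RPM (median 50.8) in the amygdala and from 17.5 to 49.4 RPM (median 30.4) in the ventral striatum, with 12 amygdala libraries above every ventral striatum library.

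By treatment, miR-211-5p in the amygdala was between 27.3 and 78.7 RPM in CN (median 49.1), 19.7 and 75.8 RPM in CS (median 32.7), 16.3 and 127 RPM in EN (median 57.7) and 28.4 and 63.8 RPM in ES (median 48.2). All these ranges overlapped. In the ventral striatum the medians of miR-211-5p were 28.4 RPM in CN, 33.7 in CS, 28.9 in EN and 26.7 in ES, again with overlapping ranges. The highest mir-211 values were 185 RPM in A EN F2 and 192 RPM in A EN M3, followed by 103 RPM in A CN F3.

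Because miR-204-5p and miR-211-5p differ by a single base and the way reads matching several names were divided is not stated, the miR-211 levels are uncertain. For each 1000 reads of miR-204-5p there were 0.722 to 16.2 reads of miR-211-5p in the amygdala (median 2.80) and 2.11 to 9.99 in the ventral striatum (median 5.35). The mean log2 ratio of miR-204-5p to miR-211-5p was 8.10 ± 1.22 (amygdala) and 7.63 ± 0.57 (ventral striatum), with SDs over n = 24 libraries each, a difference of 0.47 (two-sided permutation p = 0.0975, and 0.102 by sign flips over 24 pairs of consecutive library numbers). Without A EN F2 and M3 the difference was 0.29 (permutation p = 0.263). The high miR-204-5p of these pools was in view when the members were chosen, so nothing is read from this test. mir-211 held 104% to 240% of the estimated reads of miR-211-5p (amygdala) and 111% to 167% (ventral striatum). The log2 ratio of miR-204-5p to miR-204-3p, in the 18 amygdala and 22 ventral striatum libraries with any read of the 3p arm, was 11.8 ± 0.84 and 11.4 ± 0.84 (SD). These means leave out the 8 libraries without a 3p read and were not compared.

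**Figure D2:**
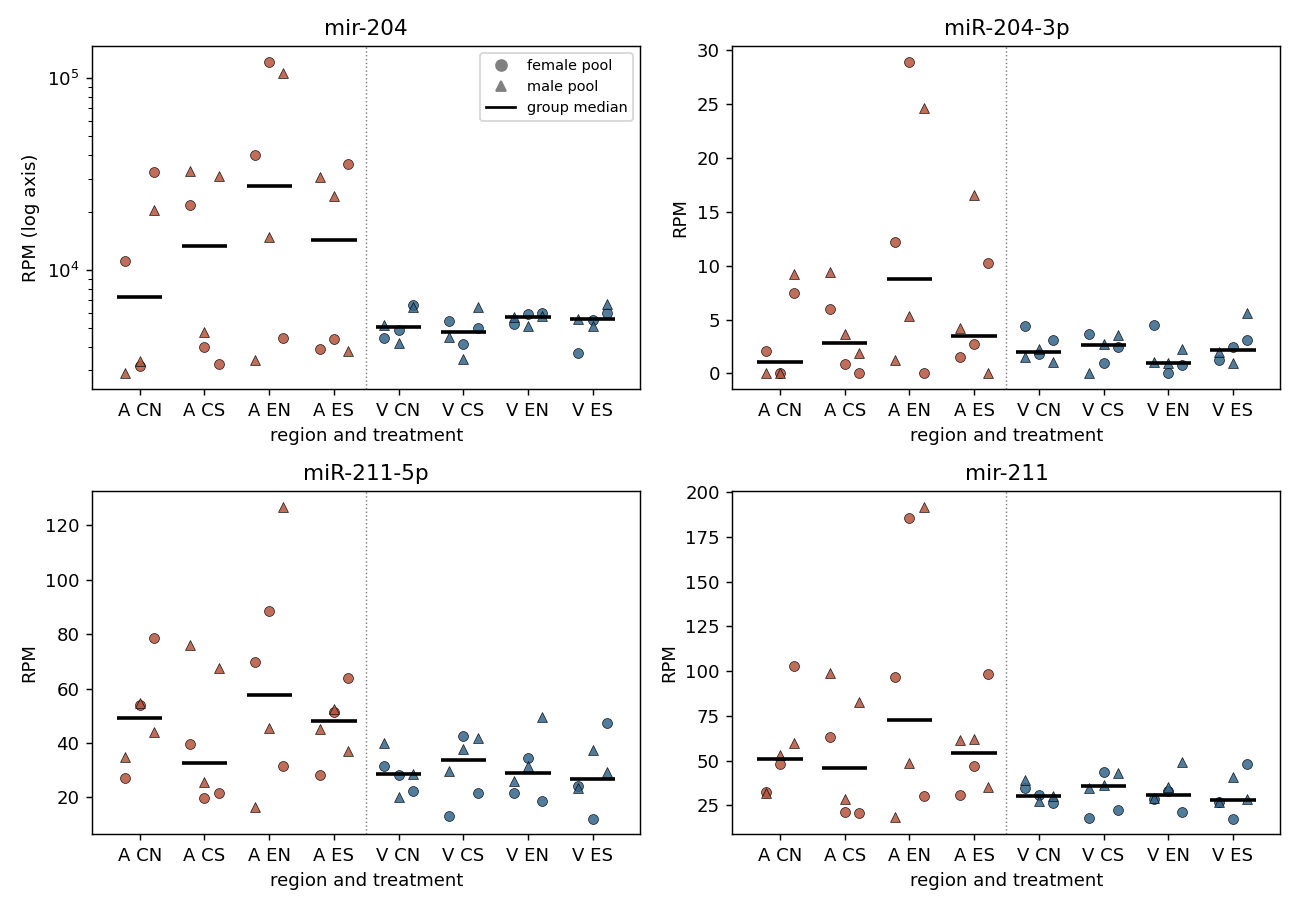
RPM of mir-204 (log axis), miR-204-3p, miR-211-5p and mir-211 (linear axes) in each of 48 libraries, by region and treatment, with female pools as circles, male pools as triangles and bars at the median of 6. A EN F2 and M3 are the highest libraries in each panel, at 28.9 and 24.7 RPM for miR-204-3p and at 185 and 192 RPM for mir-211.

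The spread between pools was wide for amygdala and narrow for ventral striatum libraries. Between the 3 pools of a sex and treatment, the SD of log2(RPM + 1) was 1.84 for miR-204-5p in the amygdala, a factor of 3.57, and 0.28 in the ventral striatum, a factor of 1.21. In the amygdala 98.1% of 910 names had a smaller SD, and only 16 names had a larger one. In the ventral striatum 31.3% of 933 names had a smaller SD than miR-204-5p, which placed it below the median name (0.41). mir-204 behaved alike, with SDs of 1.88 and 0.28.

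For miR-211-5p the SD was 0.77 in the amygdala (76.5% of names smaller) and 0.55 in the ventral striatum (67.3%), and for mir-211 it was 1.00 (91.1%) and 0.42 (51.3%). These SDs are a description, since the spread was in view when the members were chosen. For miR-204-3p the SDs of 1.74 and 0.78 rest on few reads.

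**Figure D3:**
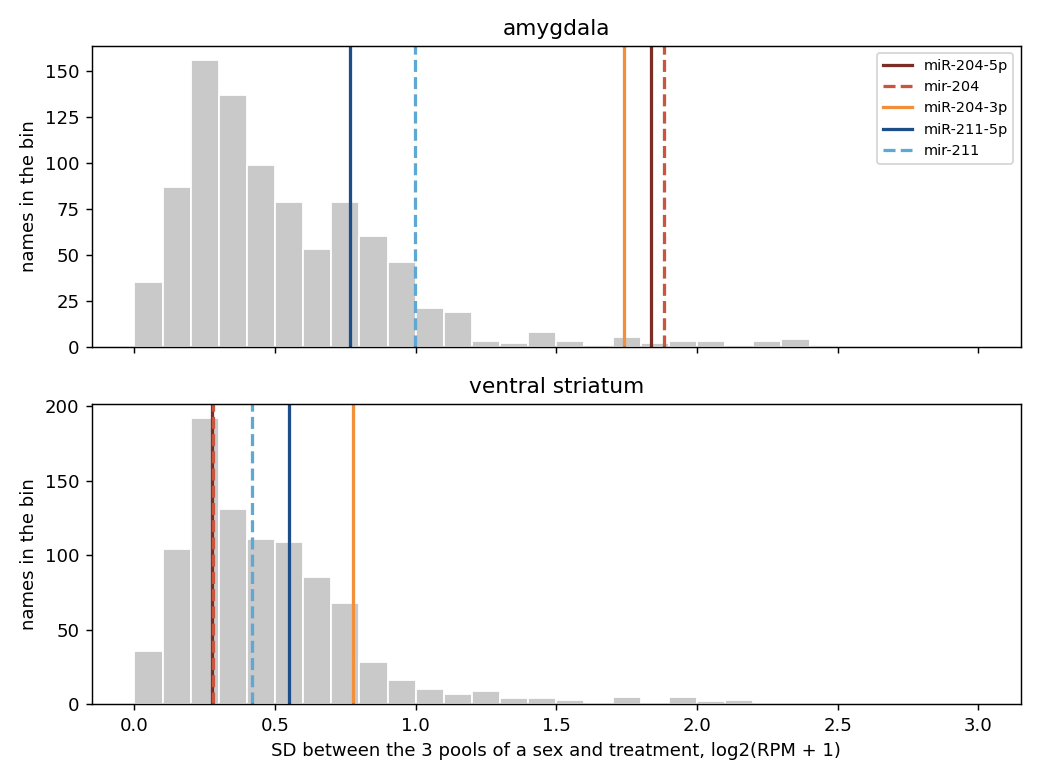
Number of names (vertical axis) by SD of log2(RPM + 1) between the 3 pools of a sex and treatment (horizontal axis), for 910 amygdala names and 933 ventral striatum names, with the members as lines (solid mature, dashed precursor). miR-204-5p lies at 1.84 in the amygdala, where 16 names have a larger SD, and at 0.28 in the ventral striatum.

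Both regions were dissected from the same rats, and their levels were compared to ask whether the members differ between regions. Means of miR-204-5p were 23540 ± 30874 RPM (amygdala) and 5610 ± 932 RPM (ventral striatum), each with its SD over n = 24 libraries, a log2 difference of 1.13 with a standard error of 0.37. The log2 difference was 1.19 (standard error 0.38) for mir-204 and 0.54 (0.38) for miR-204-3p. miR-211-5p had means of 50.0 ± 25.7 and 29.7 ± 10.1 RPM and a log2 difference of 0.65 (standard error 0.19), and mir-211 one of 0.75 (0.22). The regions overlapped for every member. All but miR-204-3p, 4 of 5 members, had a limma adjusted p under 0.05, where 28.5% of the 968 names tested did, 8.16% higher and 20.4% lower in the amygdala (39% at an unadjusted p under 0.05). The high A EN values and the spread of the amygdala pools were in view when the members were chosen, so nothing is read from that count.

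A CS was the only amygdala group in neither of the contrasts that led to the choice, and it was tested against V CS. The spread between its pools was still in view when the members were chosen. This test is therefore not free of the choice, and no conclusion is drawn from it. miR-204-5p averaged 16333 ± 13774 RPM in A CS and 5123 ± 1054 RPM in V CS (SD, n = 6 each), with a two-sided exact permutation p of 0.165. The exact permutation p was 0.160 for mir-204, 0.431 for miR-204-3p, 0.366 for miR-211-5p and 0.216 for mir-211, all above 0.05. With consecutive library numbers taken as pairs, miR-204-5p was higher in the amygdala in 4 of 6 pairs (exact sign-flip permutation p = 0.188, where the smallest possible is 0.0312). That such pairs share rats is not stated. The difference over all groups also depended on the libraries that entered. Without A EN F2 and M3, left out after their values were seen, it was 0.84 for miR-204-5p and 0.90 for mir-204, and in the saline libraries alone it was 0.82 and 0.87, with 0 members at a limma adjusted p under 0.05.

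Prenatal ethanol and enrichment were compared within each region to ask whether either treatment moved the members. In A N(EvC), used in choosing them, miR-204-5p averaged 48470 ± 53269 RPM in EN and 12234 ± 11454 RPM in CN (SD, n = 6 each), a ratio of means of 3.96 and a log2 fold change of 1.46 with a standard error of 1.03. mir-204 had a log2 fold change of 1.50 (standard error 1.05), miR-204-3p of 1.51 (0.97), miR-211-5p of 0.15 (0.43) and mir-211 of 0.42 (0.56). In A E(SvN), which shares the EN libraries and was also used, miR-204-5p averaged 17121 ± 14672 RPM in ES, and its log2 fold change was −0.998 (standard error 1.03). The other members had log2 fold changes of −1.01 for mir-204, −0.66 for miR-204-3p, −0.20 for miR-211-5p and −0.38 for mir-211. Of 910 names, 0% had an adjusted p under 0.05 in either contrast, and 4.51% and 2.64% an unadjusted p under 0.05.

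The groups overlapped for every member in both contrasts. Without A EN F2 and M3 the log2 fold changes in A N(EvC) were 0.28 for miR-204-5p, 0.32 for mir-204 and 0.55 for miR-204-3p, and they turned sign for miR-211-5p (−0.36) and mir-211 (−0.32). In A E(SvN) all 5 turned sign without these pools, to 0.19 for miR-204-5p, 0.17 for mir-204, 0.31 for miR-204-3p, 0.31 for miR-211-5p and 0.35 for mir-211. miR-204-5p in these pools was 3.29 and 2.90 times that of the next highest library, and without them the mean of A EN was 15119 RPM, 1.24 times that of A CN. For miR-204-5p in A E(SvN) the study also listed a decrease on microarrays of the same pooled RNA, which were not analysed here.

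The other treatment contrasts were tested. Those of the amygdala are not free of the choice of members, since A ES and A CN also entered the contrasts that led to it. In enriched rats [A S(EvC)], miR-204-5p averaged 17121 ± 14672 RPM after ethanol and 16333 ± 13774 RPM in controls, a log2 fold change of 0.04 with a 95% confidence interval from −2.12 to 2.20 (two-sided exact permutation p = 0.885). In control rats [A C(SvN)] the log2 fold change with enrichment was 0.42, with an interval from −1.74 to 2.59 (exact permutation p = 0.517). With intervals this wide, a moderate effect on miR-204-5p in the amygdala was not detectable, and a large one was not excluded. miR-211-5p had log2 fold changes of 0.30 (interval −0.61 to 1.21) in A S(EvC) and −0.34 (interval −1.25 to 0.57) in A C(SvN).

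In the ventral striatum the intervals of miR-204-5p were narrower than in the amygdala. The log2 fold change of miR-204-5p was 0.09 in V N(EvC) (interval −0.23 to 0.42), 0.16 in V S(EvC) (−0.17 to 0.49), −0.14 in V C(SvN) (−0.47 to 0.18) and −0.08 in V E(SvN) (−0.41 to 0.25). The means of miR-204-5p were 5956 ± 431 RPM in V EN, 5650 ± 1078 RPM in V CN, 5123 ± 1054 RPM in V CS and 5710 ± 1049 RPM in V ES (SD, n = 6 each). The standard error of a contrast was 1.03 for miR-204-5p (amygdala) and 0.16 (ventral striatum). For miR-211-5p the intervals of the 4 ventral striatum contrasts reached from −0.77 to 0.71. For miR-204-3p, on few reads, they reached from −1.42 to 1.46.

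Over the 6 tested contrasts and 5 members, 0 of 30 comparisons had a limma p under 0.05, adjusted or not, or an exact permutation p under 0.05 (range 0.323 to 0.892). The amygdala contrasts among them carry the limit given above, as they share groups with those used in choosing the members. The background was 0% of names at an adjusted p under 0.05 in each of these contrasts, and at an unadjusted p under 0.05 it was 3.85% in A S(EvC), 2.64% in A C(SvN), 2.04% in V N(EvC), 2.25% in V S(EvC), 3.86% in V C(SvN) and 1.82% in V E(SvN). The smallest p that the exact test can give with 6 against 6 libraries is 0.00216. Females and males were also compared over both regions. miR-204-5p averaged 14609 ± 25199 RPM in females and 14540 ± 22064 RPM in males (SD, n = 24 each), a log2 difference of −0.10 (standard error 0.37, limma adjusted p = 1). No other member was called between the sexes. Of the 968 names, 0% had an adjusted p under 0.05 and 3.93% an unadjusted p under 0.05.

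**Figure D4:**
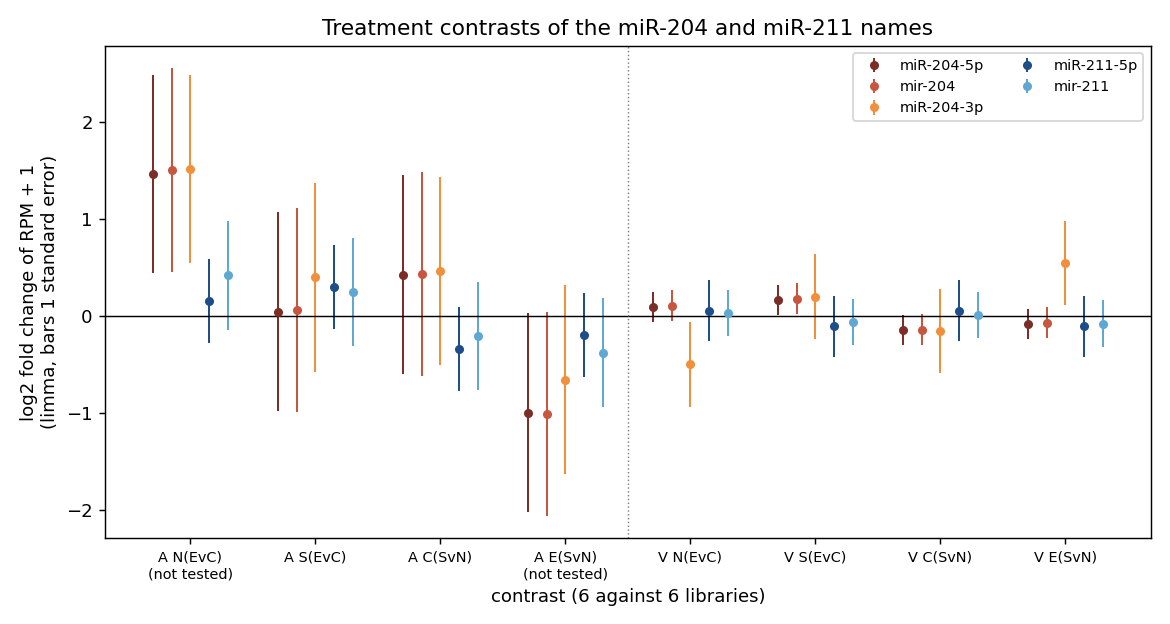
Log2 fold change of RPM + 1 for the 5 members in 8 treatment contrasts of 6 against 6 libraries, with bars of 1 standard error from limma. The bars of miR-204-5p span 1.03 to each side (amygdala) and 0.16 (ventral striatum), and A N(EvC) and A E(SvN), used in choosing the members, are shown without a test.

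Names that varied like miR-204-5p between pools were sought over 853 names, using deviations of log2(RPM + 1) from the mean of each sex and treatment in a region, over all 48 libraries. Pearson's r is given as a description, since the names of a library share a fixed total and the members were chosen with this in view. Among mature names the most alike were miR-1298 (r = 0.93), miR-448-3p (0.90), miR-34c-5p (0.75), miR-34c-3p (0.73), miR-34b-5p (0.70), miR-34b-3p (0.68), miR-182 (0.68) and miR-3552 (0.65). Among precursor names the most like mir-204 were mir-448 (0.94), mir-1298 (0.93), mir-1912 (0.89), mir-34c (0.75) and mir-34b (0.69). The median name had an r of −0.06 with miR-204-5p.

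RefSeq places 5 hairpins (those of miR-3552, miR-764, miR-1912, miR-1298 and miR-448) within Htr2c, the gene for a serotonin receptor that is abundant in choroid plexus and also present in some neurons. miR-34b and miR-34c are known from multiciliated cells, which in the brain include ependyma and choroid plexus, and miR-182 from sensory epithelia.

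For most of these names the likeness lay in the amygdala. There r was 0.97 for miR-1298, 0.95 for miR-448-3p, 0.93 for miR-34c-5p and 0.94 for miR-182, over 24 libraries. Over the 24 ventral striatum libraries the same values were −0.32, −0.15, 0.11 and 0.15. Exceptions were miR-3552, with 0.69 and 0.35, and mir-448, whose r with mir-204 was 0.97 and 0.27. Whether r differed between the regions was not tested, and the narrow spread of miR-204-5p in the ventral striatum (SD 0.28) limits r there. miR-1298 ranged from 164 to 8597 RPM in amygdala libraries and from 288 to 914 RPM in those of the ventral striatum. miR-34c-5p ranged from 150 to 13297 RPM and from 141 to 5215 RPM, so it varied widely in both regions while following miR-204-5p in the amygdala. Without A EN F2 and M3, r over the remaining libraries was still 0.93 for miR-1298 and 0.74 for miR-34c-5p.

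Of the members, mir-204 had an r of 1.00 with miR-204-5p (amygdala) and 0.99 (ventral striatum). mir-211 had 0.91 and 0.0041, miR-211-5p 0.79 and 0.06, and miR-204-3p 0.90 and 0.19. Both miR-211 names thus followed miR-204-5p in the amygdala, on counts that are low in both regions. In the ventral striatum miR-204-5p varied little (SD 0.28 against 1.84), so a low r there cannot show that they did not. The unknown division of reads between the 5p names limits r as well.

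**Figure D5:**
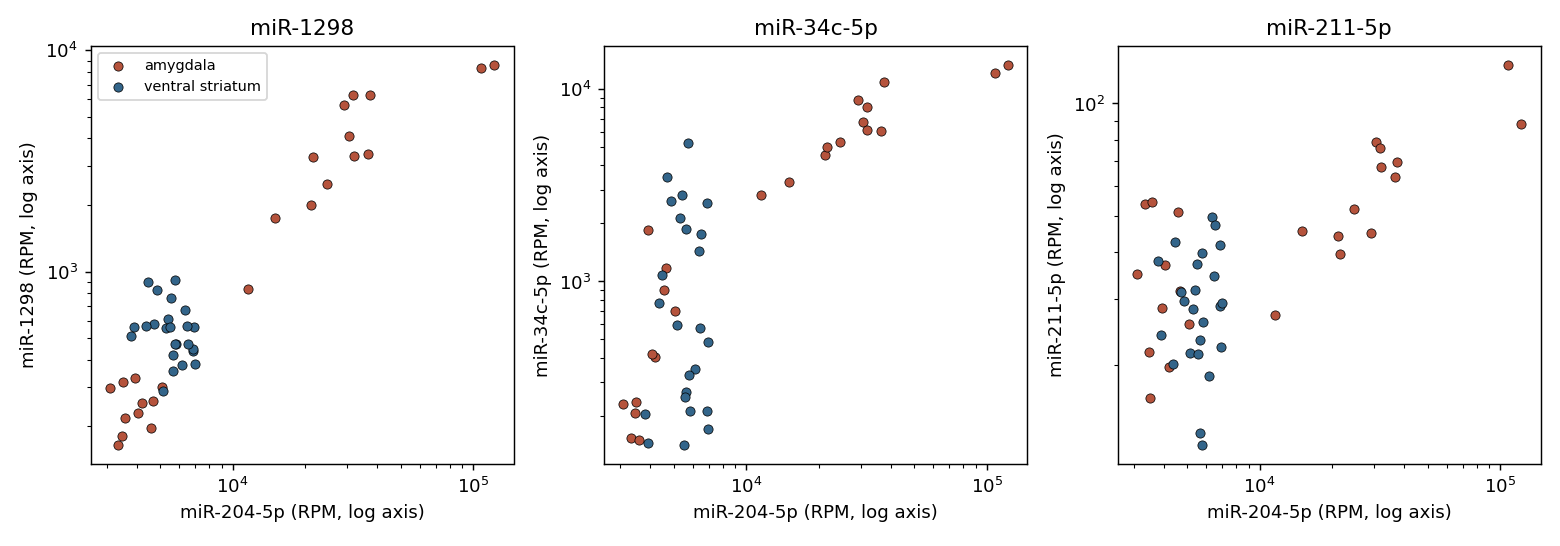
RPM of miR-1298, miR-34c-5p and miR-211-5p against RPM of miR-204-5p in each library (log axes), with amygdala in red and ventral striatum in blue. Over deviations from the mean of each sex and treatment, r in the amygdala is 0.97, 0.93 and 0.79, and in the ventral striatum −0.32, 0.11 and 0.06.

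Marker lists of miRNAs, chosen with earlier results of these data known, were set beside miR-204-5p. The Htr2c and multiciliated lists hold names found above to be most like miR-204-5p, so their r is a description and no separate evidence. Of the list of Htr2c miRNAs, which did not include miR-3552, 9 of 19 names were in the table. Their r with miR-204-5p in the amygdala was between 0.43 and 0.97 (median 0.94), and the median in the ventral striatum was −0.19. The summed RPM of the 5 mature names ranged from 294 to 9170 in amygdala libraries and from 705 to 1546 in those of the ventral striatum, and was 9170 and 9031 in A EN F2 and M3. Of the multiciliated cell list 10 of 13 names were found, 9 of them with an r, whose median was 0.90 (amygdala) and 0.08 (ventral striatum). The 6 mature names of this list summed to 157 to 14274 RPM and to 154 to 5745 RPM in these regions. In A EN F2 and M3 they summed to 14274 and 12859 RPM. No name of either list was at 0 in all libraries of a region. By treatment, the Htr2c sums of the amygdala had medians of 832 RPM in CN, 2135 in CS, 4360 in EN and 1759 in ES.

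The other lists moved less with miR-204-5p. The miR-200 and miR-183 cluster list (19 of 24 names found, 15 with an r) had a median r of 0.33 in the amygdala, ranging from −0.38 to 0.94. The red blood cell list (6 of 9, 5 with an r) had a median r of 0.41, and its mature names summed to 9.0 to 56.9 RPM. The mesenchymal and vascular list (18 of 19, 14 with an r) had a median r of −0.21. That of the neuron and oligodendrocyte list (15 of 15, all with an r) was −0.37. On this scale every name falls when another takes a larger share.

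Between the regions, 0 of 9 Htr2c names were called higher in the amygdala and 2 lower, namely miR-764-3p (log2 difference −0.59) and mir-764 (−0.56), the latter named after its value was seen, where 8.16% of all names were called higher and 20.4% lower. The median log2 difference of that list was 0.68, and that of the 9 tested multiciliated names, of which 0 were called, was 1.41, against −0.08 over all names. The part that choroid plexus or ependymal RNA in the dissected pools may have in the miR-204 levels was not tested.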

How the data were processed

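Small RNA libraries were made from pools of 3 rats per sex, treatment and region and sequenced on a MiSeq. After quality trimming, the authors mapped reads to Rn5 with Bowtie and quantified them in Partek Flow against miRBase, and they deposited a normalized signal per name and library, described as RPM. The mature and the precursor names of a library each add up to 1000000, so each was read as RPM on its own scale. The division of multi-matching reads among names is not given in the sources used here.

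Values of lines that shared a name were added up (122 lines, 56 names). The worth of 1 read was taken from the smallest repeated value of a library. As only 92.1% to 99.5% of the low mature and 83.3% to 89.5% of the low precursor values of a library in the amygdala came within 0.02 of a whole number of reads, no count test was run. Names above 0 RPM in at least 6 libraries were tested on log2(RPM + 1), a scale that understates changes of low names, with limma 3.58.1 (eBayes with trend) in R 4.3.3, over 24 libraries of a region or all 48 for region and gender, with cells of sex and treatment as groups. P-values were two-sided and adjusted over all names by the Benjamini-Hochberg method. Exact permutation tests of mean RPM and permutation tests with 100000 resamples used Python 3.11.15 and numpy 2.4.6. The calculations were tested on simulated data. The design, written for RPM, needed no change.

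Named miRNAs were the 5 members, the 8 mature and 5 precursor names most like miR-204-5p or mir-204, and up to 3 abundant names per marker list. The members and lists were chosen with earlier results of these data known. Leaving out A EN F2 and M3, the enriched saline libraries alone, the pairing by consecutive library numbers in these and in the ratio, and 1 variance per region were added after the values were seen. Bowtie and Partek are also named in the submitters' processing notes.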

Additional observations from a re-analysis of the deposited data

Results flagged for a closer look

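Of 40 groups of 6 libraries (5 members in 8 combinations of region and treatment), 0 held a library farther from the others than Dixon's critical value of 0.625, where chance marks about 1 group in 20. In each amygdala group the miR-204-5p pools fell on both sides of the gap described above. With several high pools in a group, these mask each other in Dixon's test, so its result does not show that they were not outlying. Of 40 differences of a tested contrast between females and males or between the regions, 0 of the members had a limma adjusted p under 0.05 or an unadjusted p under 0.05 (smallest limma adjusted p = 0.931).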

How the results depend on the processing

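The region difference changed its call with the libraries used. Calls over all libraries rest on pools in view when the members were chosen, so nothing is read from them here either. Those of mir-204 and miR-204-5p also rest on mostly the same reads. In the saline libraries alone the log2 difference was 0.82 for miR-204-5p, 0.87 for mir-204, 0.52 for miR-211-5p and 0.57 for mir-211, none at an adjusted p under 0.05, and −0.015, with the sign turned, for miR-204-3p. In the enriched saline libraries the differences of mean RPM were 11210 for miR-204-5p, 11487 for mir-204, 10.6 for miR-211-5p and 19.7 for mir-211 (exact permutation p between 0.160 and 0.366, and between 0.188 and 0.344 with consecutive library numbers as pairs). With consecutive library numbers as a random block over all libraries, 4 members were called. Without A EN F2 and M3 they were 0.84 for miR-204-5p and 0.90 for mir-204 on the log2 scale, not called. The number of members called, 4 with all libraries, was 2 with mature names only, where no precursor was tested, 2 without A EN F2 and M3, and 0 in the saline libraries. With each library left out in turn, 4 members were called every time, and the ranges of the log2 difference were 0.97 to 1.29 for miR-204-5p, 1.03 to 1.36 for mir-204, 0.56 to 0.74 for miR-211-5p, 0.64 to 0.84 for mir-211 and 0.40 to 0.72 for miR-204-3p.

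Within a region, replicate numbers did not pair libraries of different groups. The median r between deviations of same-numbered libraries was 0.02 (amygdala) and −0.0055 (ventral striatum), with 32 and 31 of 84 pairs over 0.1. Pairing between the regions was not examined by this check. There, same-numbered libraries had consecutive library numbers except in ethanol-exposed non-enriched females. With the replicate block, the region difference of miR-204-5p was 1.13 (limma adjusted p = 0.0214) and 4 members were called, from which again nothing is read. The block changed no other call.

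The ratio of miR-204-5p to miR-211-5p ranged from 0.37 to 0.56 in its log2 difference with each library left out. The difference had a permutation p under 0.05 without A CN F2 (0.56, permutation p = 0.0387) or A CN M2 (0.56, permutation p = 0.0426). Without A EN F2 and M3 it was 0.29 (permutation p = 0.263), and nothing is read from these values. For the ratio to miR-204-3p, with at least 10 reads of both names no ventral striatum library remained.

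In the 6 tested contrasts, all 282 values under the alternatives that did not leave out a single library kept their direction and side of the threshold. With single libraries left out no member was called, but signs near 0 turned. In A S(EvC) the ranges were −0.48 to 0.49 for miR-204-5p, −0.46 to 0.53 for mir-204, −0.095 to 0.94 for miR-204-3p and −0.025 to 0.50 for mir-211. In A C(SvN) they were −0.0045 to 0.89 for mir-204 and −0.46 to 0.062 for mir-211. In V N(EvC) they were −0.075 to 0.17 for miR-211-5p and −0.073 to 0.12 for mir-211. In V S(EvC) they were −0.14 to 0.41 for miR-204-3p, −0.34 to 0.12 for miR-211-5p and −0.25 to 0.12 for mir-211. In V C(SvN) they were −0.36 to 0.19 for miR-204-3p, −0.16 to 0.25 for miR-211-5p and −0.17 to 0.14 for mir-211. In V E(SvN) they were −0.16 to 0.028 for miR-204-5p, −0.14 to 0.035 for mir-204, −0.34 to 0.12 for miR-211-5p and −0.26 to 0.087 for mir-211.

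Between females and males the ranges were −0.24 to 0.066 for miR-204-5p, −0.24 to 0.079 for mir-204 and −0.13 to 0.19 for miR-204-3p, whose difference also turned sign with a pseudocount of 10 (−0.0011) and without A EN F2 and M3 (−0.0032). In A N(EvC) the log2 fold change of miR-204-5p was between 0.28 and 1.57 over the alternatives that did not leave out a single library and between 0.81 and 2.10 with each left out, and in A E(SvN) it was between −1.06 and 0.19 and between −1.64 and −0.35. Single libraries turned the sign of both miR-211 names, with ranges of −0.21 to 0.51 (miR-211-5p) and −0.022 to 0.81 (mir-211) in A N(EvC) and of −0.56 to 0.16 and −0.77 to 0.059 in A E(SvN). The likeness to miR-204-5p in the ventral striatum alone was −0.32 for miR-1298 and −0.15 for miR-448-3p, and that to mir-204 was −0.40 for mir-1298 and −0.50 for mir-1912. The cause of these changes was not tested. Depth limits miR-204-3p, with at most 28 reads in a library, and the miR-211 names, while miR-204-5p had at least 1434 reads in every library.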
